A study of Mus musculus with 18 samples.

Results

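The collagen chains of the mouse heart were taken as every probe set whose single gene symbol in the platform annotation is a collagen alpha chain, written as Col, a type number, the letter a and a chain number. This gave 82 of 45265 probe sets, for 42 of the 18193 genes with a probe set of their own, 58 probe sets on Affymetrix chip 430A and 24 on chip 430B. The 18 arrays measured heart RNA of male mice in 3 groups of 3 hearts: hearts taken before AAC at 8 weeks of age, hearts taken 4 weeks after AAC, and hearts taken 6 weeks after AAC with Akt active. AAC is the surgery that puts the heart under pressure overload. Every mouse, those before AAC included, carried 2 transgenes: Tet-myrAkt1, which encodes active Akt1, a growth kinase, and αMHC-tTA, whose promoter works in heart muscle cells and drives the first. The titles give 3 weeks of Akt activation and the descriptions 2 weeks, the age label of 12 weeks is the same in both later groups, and 4-week replicate 3 is numbered 1 in its description. Nothing in the labels says whether a sample is 1 animal or a pool, so p-values measure the spread between these samples.

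Collagens are made of 3 alpha chains wound into a triple helix, and the class of a chain is set by what the finished molecule builds. Fibrillar collagens form the fibres that hold heart muscle together, type IV forms the sheet of the basement membrane around muscle cells and vessels, type VIII forms open networks in vessel walls, and type VI forms beaded filaments at the cell surface. In the heart the fibrillar chains come mainly from fibroblasts, whereas the αMHC promoter that drives the transgene is active in heart muscle cells. Which cells the collagen RNA measured here came from was not tested. In whole-heart RNA, a change in the number of cells of a type and a change in RNA per cell cannot be told apart.

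The design sets 2 limits on what each comparison answers. The hearts before AAC were younger and no unoperated hearts of the later age are among the samples, so in the first comparison the operation and the passing of 4 weeks cannot be told apart. No 6-week hearts without Akt activation are among the samples either, so in the comparisons with Akt on the transgene and the later time cannot be told apart. Against the hearts before AAC, the operation differs as well and cannot be told apart from them. Both later comparisons use the same Akt-on hearts, and the 4-week hearts and the hearts before AAC each enter 2 comparisons, so the values below are given side by side and are not independent.

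Values are log2(signal + 32), where signal is the deposited MAS5 intensity of a probe set, and a value of 5 is a signal of 0. Differences are on that scale with the standard error of the limma fit, and they understate the change of dim probe sets. A probe set rose or fell where its limma adjusted p, over all 21850 probe sets tested, was under 0.05. Among the collagens, 48 probe sets of 31 genes were bright enough to be tested, 36 on chip 430A and 12 on chip 430B. The Akt1 probe set 1425711_a_at read 9.53, 8.70 and 9.04 before AAC, 9.24, 9.74 and 9.89 at 4 weeks, and 11.37, 11.89 and 12.68 with Akt on, so the Akt-on hearts lay above the other 6, with a difference from 4 weeks of 2.36 (limma adjusted p = 0.00277). The other Akt1 probe sets, 1416657_at and 1440950_at, did not pass the test in any comparison, with differences from 4 weeks of 0.01 and -0.02 (limma adjusted p = 0.987 and 0.971). Which Akt1 transcripts, transgene or endogenous, each probe set reads is not given in the sources used here. On chip 430A the β-actin 3'/5' ratio, a sign of RNA integrity, lay between 1.49 and 2.04 before AAC, between 1.14 and 1.21 at 4 weeks and between 1.04 and 1.22 with Akt on; its part in the differences from the hearts before AAC was not tested.

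With Akt on at 6 weeks, fibrillar collagens and the type VIII chain Col8a1 were higher than at 4 weeks after AAC, while most basement membrane and type VI chains did not pass the test. Of the 48 collagen probe sets, 17 rose and 0 fell, against 1.41% of all probe sets tested that rose and 1.89% that fell. At an unadjusted limma p under 0.05, 0 were lower, against 9.16% of all probe sets tested. The 17 belonged to 9 genes: Col1a1, Col1a2, Col3a1, Col5a1, Col5a2 and Col5a3 among the fibrillar chains, Col8a1, the type IV chain Col4a5, and Col15a1. The median difference was 0.65 over the collagens and 0.026 over all probe sets tested, and 43 of the 48 differences were above 0. In 27 of the 48 all 3 Akt-on hearts lay above all 3 of the 4-week hearts, against 11.5% of all probe sets tested.

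By class, 12 of the 16 fibrillar probe sets rose against 4 weeks (median difference 1.17), as did 3 of the 4 of type VIII (median 1.65). Of those 4, 1 of Col8a1 and that of Col8a2 passed the filter on brightness through the Akt-on hearts alone; the other 2, both of Col8a1, rose (median 1.86). Of type IV, 1 of 9 rose (median 0.51), and of the multiplexins, the basement membrane zone collagens XV and XVIII, 1 of 3 (median 0.43). None of the 6 type VI probe sets passed (median 0.53), nor any of the 7 of the fibril-associated collagens, which sit on the surface of fibres (median 0.61). The single probe set of Col7a1, the anchoring fibril chain, differed by 0.24 and the 2 of the transmembrane collagens by −0.27 and 0.04, and none of these passed. At an unadjusted p under 0.05, 6 of the 9 type IV, 4 of the 6 type VI and 3 of the 7 fibril-associated probe sets were higher, against 9.31% of all probe sets tested. The classes differ in how bright and how many their probe sets are, and the difference between classes was not tested.

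Type I collagen, the main fibre of the heart, is built from the chains of Col1a1 and Col1a2. Col1a1 probe set 1455494_at read 8.35, 8.18 and 8.66 before AAC, 8.10, 7.76 and 7.04 at 4 weeks, and 9.38, 10.15 and 9.27 with Akt on. The 3 groups did not overlap, with the 4-week hearts lowest. With Akt on it was higher by 1.97 ± 0.28 relative to 4 weeks (3.92-fold, adjusted p = 0.00409) and by 1.21 ± 0.28 relative to before AAC (2.31-fold, adjusted p = 0.0151). The second probe set, 1423669_at, read 10.82, 11.09 and 10.90 before AAC, 10.66, 10.60 and 9.82 at 4 weeks, and 11.52, 12.35 and 10.98 with Akt on. All Akt-on hearts lay above the 4-week hearts, but Akt-on replicate 3 lay within the range of the hearts before AAC, and the group spread was wide. It was higher than at 4 weeks by 1.26 ± 0.30 (adjusted p = 0.0437) and differed from before AAC by 0.68 ± 0.30, which did not pass (adjusted p = 0.154). Its call against 4 weeks was lost in 8 of the 9 fits that left out 1 heart, all but the one without Akt-on replicate 3 (0.89 to 1.41, adjusted p 0.0530 to 0.149), and without that heart the difference from before AAC passed (1.00, adjusted p = 0.0496). For 1455494_at the call against 4 weeks was kept without any 1 heart, whereas the call against before AAC was lost without replicate 2 of the hearts before AAC (1.10, adjusted p = 0.0577) or Akt-on replicate 2 (0.93, adjusted p = 0.0578).

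Col1a2 probe set 1423110_at read 9.51, 9.71 and 9.63 before AAC, 10.04, 9.39 and 9.08 at 4 weeks, and 10.97, 11.84 and 10.91 with Akt on. Every Akt-on heart lay above the other 6, which overlapped each other. Its differences were 1.74 ± 0.26 from 4 weeks (3.33-fold, adjusted p = 0.00532) and 1.62 ± 0.26 from before AAC (3.08-fold, adjusted p = 0.00280), and both calls were kept without any 1 heart. Probe set 1450857_a_at read 12.17, 12.61 and 12.55 before AAC, 12.86, 12.07 and 11.84 at 4 weeks, and 13.36, 13.79 and 13.25 with Akt on, again with the Akt-on hearts above all others. Its differences were 1.21 ± 0.23 from 4 weeks (adjusted p = 0.0192) and 1.02 ± 0.23 from before AAC (adjusted p = 0.0139). The first was lost without 4-week replicate 2, 4-week replicate 3 or Akt-on replicate 2 (1.00 to 1.11, adjusted p 0.0638 to 0.0764), and the second without replicate 1 of the hearts before AAC (0.89, adjusted p = 0.0543) or Akt-on replicate 2 (0.86, adjusted p = 0.0550). Another probe set of Col1a2, 1446326_at on chip 430B, was among the dimmest tested and did not pass (0.54 ± 0.27 from 4 weeks).

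Col3a1 encodes the chain of type III collagen, which forms thin fibres together with type I. Probe set 1427883_a_at read 11.99, 12.52 and 12.37 before AAC, 12.43, 11.97 and 11.75 at 4 weeks, and 13.10, 13.60 and 12.86 with Akt on, and 1427884_at read 7.89, 8.31 and 8.08, then 8.35, 7.98 and 7.37, then 9.07, 9.70 and 8.82 in the same order. In both the Akt-on hearts lay above the other 6. With Akt on, 1427883_a_at differed by 1.14 ± 0.21 from 4 weeks (2.20-fold, adjusted p = 0.0165) and by 0.89 ± 0.21 from before AAC (1.85-fold, adjusted p = 0.0169). For 1427884_at the differences were 1.30 ± 0.27 (adjusted p = 0.0242) and 1.11 ± 0.27 (adjusted p = 0.0170). Against 4 weeks, both calls were lost without 4-week replicate 2, 4-week replicate 3 or Akt-on replicate 2 (0.93 to 1.10 with adjusted p 0.0526 to 0.0718 for 1427883_a_at, and 1.04 to 1.34 with adjusted p 0.0568 to 0.0847 for 1427884_at). Against before AAC, both were lost without replicate 1 of the hearts before AAC or Akt-on replicate 2, and that of 1427884_at also without replicate 3 of the hearts before AAC (0.68 and 0.74 for 1427883_a_at, adjusted p 0.0617 and 0.0665; 0.86 to 1.10 for 1427884_at, adjusted p 0.0573 to 0.0662).

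Type V collagen is a minor part of the fibre that is known to start its assembly and limit its width; its chains are encoded by Col5a1, Col5a2 and Col5a3. Col5a2 probe set 1422437_at read 9.55, 9.68 and 9.47 before AAC, 10.08, 9.69 and 9.25 at 4 weeks, and 11.01, 11.74 and 10.73 with Akt on. Probe set 1450625_at of the same gene read 7.70, 7.60 and 7.67 before AAC, 7.59, 7.55 and 7.48 at 4 weeks, and 9.01, 9.77 and 8.71 with Akt on. In both, the Akt-on hearts stood clear of the other 6. The differences from 4 weeks were 1.49 ± 0.25 for 1422437_at (adjusted p = 0.00912) and 1.63 ± 0.23 for 1450625_at (adjusted p = 0.00392). From before AAC they were 1.59 ± 0.25 (adjusted p = 0.00234) and 1.51 ± 0.23 (adjusted p = 0.00210). All 4 calls were kept without any 1 heart.

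The 3 probe sets of Col5a1 moved unequally. Probe set 1416741_at read 6.88, 7.35 and 7.37 before AAC, 7.29, 7.88 and 7.33 at 4 weeks, and 9.06, 9.34 and 9.04 with Akt on. Probe set 1416740_at read 10.24, 10.26 and 10.37 before AAC, 9.89, 9.70 and 9.51 at 4 weeks, and 10.71, 10.75 and 10.45 with Akt on. In 1416741_at the Akt-on hearts stood well above the other 6, which overlapped; in 1416740_at the 3 groups did not overlap, and the 4-week hearts were lowest. Against 4 weeks, 1416741_at was higher by 1.65 ± 0.21 (adjusted p = 0.00277) and 1416740_at by 0.94 ± 0.14 (adjusted p = 0.00474), and both calls were kept without any 1 heart. Against before AAC, 1416741_at was higher by 1.95 ± 0.21 (3.86-fold, adjusted p = 0.000434), while 1416740_at differed by 0.34 ± 0.14 and did not pass (adjusted p = 0.121).

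The third Col5a1 probe set, 1434479_at, read 9.45, 10.17 and 9.50 before AAC, 9.04, 9.52 and 8.97 at 4 weeks, and 10.33, 10.46 and 9.99 with Akt on. The Akt-on hearts lay above the 4-week hearts and overlapped those before AAC through replicate 2 of those hearts. It rose against 4 weeks by 1.08 ± 0.22 (adjusted p = 0.0222), a call lost without 4-week replicate 1 or 3 or without Akt-on replicate 1 or 2 (0.98 to 1.05, adjusted p 0.0515 to 0.0850). Against before AAC it did not pass (0.55 ± 0.22, adjusted p = 0.111), and of the fits that left out 1 heart it passed in the one without replicate 2 of the hearts before AAC (0.78, adjusted p = 0.0389). Col5a3 probe set 1419703_at read 9.14, 9.12 and 9.07 before AAC, 8.36, 8.73 and 8.32 at 4 weeks, and 9.17, 9.38 and 9.33 with Akt on. The 4-week hearts were lowest, and the Akt-on hearts lay just above those before AAC. Col5a3 was higher with Akt on than at 4 weeks by 0.82 ± 0.15 (adjusted p = 0.0125), a call lost without 4-week replicate 3 (0.74, adjusted p = 0.0587), and differed from before AAC by 0.18 ± 0.15, which did not pass (adjusted p = 0.454).

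The other fibrillar probe sets tested were those of Col11a2 and Col27a1, chains best known from cartilage. Both probe sets of Col27a1 were higher in all 3 Akt-on hearts than in the 4-week hearts, by 0.49 ± 0.13 (adjusted p = 0.0714) and 0.45 ± 0.21 (adjusted p = 0.271), and did not pass. Col11a2, the dimmest collagen probe set tested by its rank on its chip, differed from 4 weeks by 0.01 ± 0.26.

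Col8a1 encodes a chain of type VIII collagen, a short-chain collagen known from vessel walls and made by smooth muscle cells, endothelium and fibroblasts. Its probe set 1418440_at read 9.58, 9.29 and 9.24 before AAC, 10.13, 9.46 and 8.52 at 4 weeks, and 10.96, 11.87 and 11.12 with Akt on. On chip 430B, 1455627_at read 7.96, 8.94 and 8.73 before AAC, 9.64, 8.86 and 8.35 at 4 weeks, and 10.79, 11.07 and 10.35 with Akt on. In both, every Akt-on heart lay above the other 6, and the 4-week hearts were spread widely around those before AAC. For 1418440_at the difference was 1.94 ± 0.34 (3.85-fold) from both 4 weeks (adjusted p = 0.0107) and before AAC (adjusted p = 0.00396). For 1455627_at it was 1.79 ± 0.32 from 4 weeks (3.45-fold, adjusted p = 0.0115) and 2.19 ± 0.32 from before AAC (4.56-fold, adjusted p = 0.00164). Of these, the call of 1455627_at against 4 weeks was lost without Akt-on replicate 2 (1.62, adjusted p = 0.0507).

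The third Col8a1 probe set, 1418441_at, read 5.84, 5.69 and 5.41 before AAC, 7.17, 6.97 and 6.45 at 4 weeks, and 7.73, 9.19 and 8.20 with Akt on. It was near the floor before AAC and the 3 groups did not overlap. It passed the filter on brightness through the Akt-on hearts alone, so its calls are a description of a probe set that had to be high there. It was higher with Akt on than at 4 weeks by 1.51 ± 0.36 (adjusted p = 0.0415) and than before AAC by 2.73 ± 0.36 (adjusted p = 0.00111). The first of these calls was lost in 8 of the 9 fits that left out 1 heart, all but the one without Akt-on replicate 1 (1.11 to 1.67, adjusted p 0.0534 to 0.145). At 4 weeks it was higher than before AAC by 1.22 ± 0.36, which did not pass (adjusted p = 0.0674), though it did without Akt-on replicate 1 (adjusted p = 0.0436) or 2 (adjusted p = 0.0443), hearts that enter that comparison through the shared spread only. The partner chain Col8a2 (1434667_at) also passed the filter through the Akt-on hearts alone, and at 0.89 ± 0.29 from 4 weeks it did not pass the test (adjusted p = 0.126).

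In the basement membrane, Col4a1 and Col4a2 encode the chains of the common type IV network, and Col4a3, Col4a4, Col4a5 and Col4a6 those of networks found in particular tissues. Col4a1 probe set 1452035_at read 12.46, 12.43 and 12.52 before AAC, 11.77, 12.28 and 12.01 at 4 weeks, and 12.39, 12.90 and 12.49 with Akt on. Col4a2 probe set 1424051_at read 11.73, 11.80 and 11.84 before AAC, 11.33, 11.83 and 11.58 at 4 weeks, and 11.97, 12.34 and 11.73 with Akt on. Both were lowest in a 4-week heart and highest in an Akt-on heart, but the Akt-on hearts overlapped those before AAC. The differences from 4 weeks were 0.57 ± 0.16 for Col4a1 (adjusted p = 0.0712) and 0.43 ± 0.16 for Col4a2 (adjusted p = 0.182), and from before AAC 0.12 ± 0.16 and 0.22 ± 0.16, and none passed. Among the alternatives of processing, Col4a1 1452035_at passed against 4 weeks with quantile normalization within each chip (0.62, limma adjusted p = 0.0425). It also passed with the atrial level as a covariate (0.63, limma adjusted p = 0.0304).

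Outside the alternatives of processing, Col4a5 was the type IV gene that passed the test. Probe set 1425475_at read 9.63, 9.54 and 9.33 before AAC, 9.74, 9.63 and 9.22 at 4 weeks, and 10.25, 10.20 and 10.27 with Akt on. The 3 Akt-on hearts lay close together and above the other 6. Its differences were 0.71 ± 0.15 from 4 weeks (1.64-fold, adjusted p = 0.0310) and 0.74 ± 0.15 from before AAC (1.67-fold, adjusted p = 0.00927). The second probe set, 1425476_at, read 9.51, 9.10 and 9.13 before AAC, 10.07, 9.48 and 9.27 at 4 weeks, and 10.08, 10.26 and 10.02 with Akt on, so that 4-week replicate 1 reached the Akt-on hearts. It was higher than before AAC (0.87 ± 0.20, adjusted p = 0.0134) and did not pass against 4 weeks (0.51 ± 0.20, adjusted p = 0.189), except without 4-week replicate 1 (0.74, adjusted p = 0.0484). The call of 1425475_at against 4 weeks was lost in 6 of the 9 fits without 1 heart, those without replicate 2 of the hearts before AAC, 4-week replicate 2 or 3, or any Akt-on heart (0.56 to 0.76, adjusted p 0.0512 to 0.103). That of 1425476_at against before AAC was lost without replicate 2 (0.80, adjusted p = 0.0529) or 3 (0.81, adjusted p = 0.0577) of the hearts before AAC. The probe sets of Col4a3, Col4a4 and Col4a6 passed in no comparison, with differences from 4 weeks between −0.14 and 0.71.

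Type VI collagen forms beaded filaments that tie cells to the fibres around them, and its chains here were Col6a1, Col6a2, Col6a3 and Col6a4. Col6a1 probe set 1448590_at read 11.06, 11.14 and 11.21 before AAC, 11.09, 10.68 and 10.52 at 4 weeks, and 11.52, 11.70 and 11.08 with Akt on. Col6a3 probe set 1424131_at read 10.30, 10.31 and 10.55 before AAC, 10.18, 10.19 and 10.13 at 4 weeks, and 10.74, 10.95 and 10.08 with Akt on. In both, 2 of the 3 Akt-on hearts were the highest of the 9, while Akt-on replicate 3 lay among the others in Col6a1 and was the lowest of all in Col6a3. The differences from 4 weeks were 0.67 ± 0.18 for Col6a1 (adjusted p = 0.0685) and 0.43 ± 0.19 for Col6a3 (adjusted p = 0.263). Col6a2 probe set 1452250_a_at read 11.53, 11.50 and 11.60 before AAC, 11.56, 11.06 and 10.61 at 4 weeks, and 11.94, 12.00 and 11.48 with Akt on, a difference of 0.73 ± 0.21 from 4 weeks that did not pass (adjusted p = 0.0849).

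These type VI results turned on single hearts. Without Akt-on replicate 3, Col6a1 (0.84, adjusted p = 0.0335), Col6a3 (0.68, adjusted p = 0.0380) and Col6a2 probe set 1426947_x_at (0.81, adjusted p = 0.0320) passed against 4 weeks. Without 4-week replicate 1, Col6a1 (0.83, adjusted p = 0.0359) and Col6a2 probe set 1452250_a_at (0.97, adjusted p = 0.0212) did. Against before AAC the type VI differences lay between −0.11 and 0.29, none passed, and in none did the Akt-on hearts all lie on 1 side of the hearts before AAC.

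Col15a1 and Col18a1 encode collagens of the basement membrane zone, and the end piece of the Col18a1 chain is known as endostatin. Col15a1 probe set 1448755_at read 10.19, 10.22 and 10.45 before AAC, 10.13, 9.92 and 9.10 at 4 weeks, and 10.83, 11.27 and 10.52 with Akt on. The groups did not overlap, and 4-week replicate 3 lay furthest below. It rose against 4 weeks by 1.16 ± 0.25 (adjusted p = 0.0298), a call lost without 4-week replicate 2 or 3 or Akt-on replicate 1 or 2 (0.85 to 1.26, adjusted p 0.0516 to 0.0977), and against before AAC it did not pass (0.59 ± 0.25, adjusted p = 0.135). Col18a1 probe set 1426955_at read 7.78, 9.14 and 8.91 before AAC, 8.40, 8.01 and 8.18 at 4 weeks, and 8.95, 8.90 and 8.03 with Akt on. Its groups overlapped throughout, and neither probe set of the gene passed in any comparison.

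Among the fibril-associated collagens, Col16a1 (1427986_a_at) read 7.68, 7.26 and 7.59 before AAC, 7.75, 7.89 and 7.72 at 4 weeks, and 8.48, 8.90 and 8.27 with Akt on. The Akt-on hearts lay above all others. It rose against before AAC by 1.04 ± 0.20 (adjusted p = 0.00577), a call kept without any 1 heart, and against 4 weeks it did not pass (0.76 ± 0.20, adjusted p = 0.0577). Col14a1 (1427168_a_at), which encodes an organiser of fibre width, read 8.33, 9.24 and 8.89 before AAC, 8.97, 8.27 and 8.22 at 4 weeks, and 9.47, 9.50 and 8.65 with Akt on. Its groups overlapped, and it passed in no comparison (0.72 ± 0.29 from 4 weeks, adjusted p = 0.207). The probe sets of Col9a1, Col12a1, Col20a1 and Col22a1 also passed in none; Col12a1 came nearest, at 1.17 ± 0.38 from before AAC (adjusted p = 0.0600).

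Against the hearts before AAC, 14 collagen probe sets of 8 genes were higher with Akt on and 0 were lower, where 8.25% of all probe sets tested rose and 6.77% fell. At an unadjusted limma p under 0.05, 0 were lower, against 14.0% of all probe sets tested. The genes were Col1a1, Col1a2, Col3a1, Col5a1, Col5a2, Col8a1, Col4a5 and Col16a1. The median difference was 0.34 over the collagens and 0.011 over all probe sets tested, and in 23 of the 48 all Akt-on hearts lay above all hearts before AAC, against 17.6% of all probe sets tested. Of the fibrillar probe sets 8 of 16 rose, of type VIII 3 of 4, of type IV 2 of 9 and of the fibril-associated collagens 1 of 7, with none of the 3 of the multiplexins. A total of 12 probe sets of 7 genes passed both against 4 weeks and against before AAC, 5 passed against 4 weeks only and 2 against before AAC only. Those that passed against 4 weeks only were Col1a1 1423669_at, Col5a1 1416740_at and 1434479_at, Col5a3 and Col15a1.

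At 4 weeks after AAC 0 collagen probe sets were higher than before AAC and 3 were lower, where 3.59% of all probe sets tested rose and 2.00% fell. Those that fell were Col5a1 1416740_at (−0.59 ± 0.14, adjusted p = 0.0338), Col5a3 1419703_at (−0.64 ± 0.15, adjusted p = 0.0312) and Col6a2 1426947_x_at (−0.66 ± 0.17, adjusted p = 0.0477). The last read 10.54, 10.75 and 10.27 at 4 weeks, against 11.19, 11.25 and 11.10 before AAC, and in all 3 the 4-week hearts lay below those before AAC. Its values with Akt on were 11.21, 11.44 and 10.80, and both other probe sets are described above. The second probe set of Col6a2 did not pass (−0.47 ± 0.21, adjusted p = 0.208), nor did the other probe sets of Col5a1, of which 1416741_at lay on the other side of 0 (0.30 ± 0.21).

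None of these 3 falls was kept without every heart in turn. That of Col5a1 was lost without any 1 of the hearts before AAC or without 4-week replicate 2 or 3 (−0.62 to −0.50, adjusted p 0.0770 to 0.122). Those of Col5a3 (−0.77 to −0.56, adjusted p 0.0504 to 0.0958) and Col6a2 (−0.77 to −0.53, adjusted p 0.0777 to 0.140) were lost without any 1 heart of either group. The collagen median was −0.19, beside −0.018 over all probe sets tested, and 16 of the 48 differences were above 0. All 4-week hearts lay below all hearts before AAC in 12 of the 48, against 15.6% of all probe sets tested, and above them in 2, against 14.8%. At an unadjusted p under 0.05, 9 collagen probe sets were lower and 1 higher, against 11.0% and 11.9% of all probe sets tested. The fibrillar chains Col1a1, Col1a2 and Col3a1 did not pass at 4 weeks in any of their probe sets, with differences between −0.76 and −0.11.

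The hearts of a group differed among themselves. Akt-on replicate 2 was the highest of the 9 hearts in 35 of the 48 collagen probe sets, where it was the highest in 13.8% of all probe sets tested. In 21 of the 48, 4-week replicate 3 was the lowest of the 9 hearts, against 11.9% of all probe sets tested. Of the 17 that rose against 4 weeks, 16 were highest in Akt-on replicate 2 and 14 were lowest in 4-week replicate 3. The 17 were called for being higher with Akt on than at 4 weeks, so the shares over all probe sets do not apply to them. On chip 430A the summed signal of the 36 collagen probe sets tested was 43079, 47227 and 46157 before AAC, 42567, 37918 and 30320 at 4 weeks, and 66054, 89301 and 56658 with Akt on. Every Akt-on heart exceeded every other heart in this sum, and the sums at 4 weeks all lay below those before AAC. The sum is weighted to the brightest chains: the mean log2 value over the 48 was 9.37, 9.67 and 9.15 with Akt on, also above every other heart, but 8.89, 8.67 and 8.42 at 4 weeks overlapped 8.72, 8.90 and 8.78 before AAC. Without Akt-on replicate 2 the number of collagen probe sets that rose against 4 weeks was 8 in place of 17, without 4-week replicate 3 it was also 8, and without 4-week replicate 2 it was 10. In these fits 0.673%, 0.503% and 0.636% of all probe sets tested rose, in place of 1.41%. Against before AAC the number of collagen probe sets that rose was 10 in place of 14 without Akt-on replicate 2, where 5.04% of all probe sets tested rose in place of 8.25%. Over all alternatives the count against 4 weeks ran from 5 to 19.

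The transcripts of atrial muscle differed strongly between hearts and across all groups. The atrial marker probe sets on chip 430A summed to 7977.2, 102210 and 55083 before AAC, 77217, 8902.4 and 11392 at 4 weeks, and 82128, 8830.1 and 19421 with Akt on. Akt-on replicate 2, the heart with the most collagen signal, ranked 8 of 9 in mean atrial marker level, and none of the 14 atrial probe sets passed against 4 weeks. With the atrial level as a covariate 19 collagen probe sets rose against 4 weeks and 14 against before AAC, where 1.54% and 9.06% of all probe sets tested rose. Leaving out the 4 hearts richest in atrial transcripts leaves 1 heart before AAC, whose spread is taken from the other groups. The median collagen differences were then 0.80 and 0.60, against 0.025 and −0.019 over all probe sets tested. The hearts kept included Akt-on replicate 2, highest in 35 of the 48 collagen probe sets, and 4-week replicate 3, lowest in 21. The counts of that fit are given with the alternatives of processing below.

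The enzymes and chaperones that make collagen were listed from textbook knowledge. Of 29 probe sets of 19 such genes, 1 rose against 4 weeks and 0 fell, where 1.41% of all probe sets tested rose and 1.89% fell. It was 1 of the 2 of Serpinh1, the collagen chaperone Hsp47 (1456733_x_at, 0.78 ± 0.14, adjusted p = 0.0118). The other, 1450843_a_at, differed from 4 weeks by 0.52 and did not pass (limma adjusted p = 0.0757). The list's median difference was 0.27. Both probe sets of Serpinh1 fell at 4 weeks relative to before AAC (1450843_a_at by −0.77 ± 0.14, adjusted p = 0.0166, and 1456733_x_at by −0.73 ± 0.14, adjusted p = 0.0167), as did Creb3l1 (−0.73 ± 0.17, adjusted p = 0.0313), a transcription factor known to act on type I collagen genes. These were the 3 of the 29 that fell at 4 weeks, and 0 rose, where 2.00% of all probe sets tested fell and 3.59% rose. With Akt on against before AAC, 4 of the 29 rose and 0 fell, where 8.25% of all probe sets tested rose and 6.77% fell. They were 2 of P4ha1, a prolyl 4-hydroxylase subunit (0.78 ± 0.19, adjusted p = 0.0195, and 0.69 ± 0.21, adjusted p = 0.0422), Crtap, part of the prolyl 3-hydroxylation complex (0.71 ± 0.14, adjusted p = 0.00675), and Sec23a, a coat protein of export from the endoplasmic reticulum (0.57 ± 0.14, adjusted p = 0.0211).

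Among the proteins that process and crosslink collagen outside the cell, 3 of 20 probe sets rose against 4 weeks and 0 fell, where 1.41% of all probe sets tested rose and 1.89% fell. They were 2 of the 3 of Sparc, a collagen-binding matrix protein (0.89 ± 0.14, adjusted p = 0.00721, and 0.70 ± 0.13, adjusted p = 0.0145; the other differed by −0.05, adjusted p = 0.925), and 1 of Lox, lysyl oxidase (1.12 ± 0.26, adjusted p = 0.0401). Against before AAC 10 of the 20 rose and 0 fell, from 4 genes, where 8.25% of all probe sets tested rose and 6.77% fell. A second Lox probe set, 1448228_at, was higher by 2.26 ± 0.36 (adjusted p = 0.00247). It passed the filter on brightness through the Akt-on hearts alone, so it had to be high there. Of Tgm2, a transglutaminase, 4 passed, among them 2 that were higher by 0.93 ± 0.20 (adjusted p = 0.0107) and 0.68 ± 0.13 (adjusted p = 0.00698). A probe set of Tgm2 was also the single one of the 20 that rose at 4 weeks (0.52 ± 0.13, adjusted p = 0.0444), where 3.59% of all probe sets tested rose. Of 16 probe sets of collagen receptors, 1 rose against 4 weeks, 1437619_x_at, 1 of the 6 of the receptor kinase Ddr1 (0.86 ± 0.17, adjusted p = 0.0195). Against before AAC that probe set did not pass (0.27, limma adjusted p = 0.309). Against before AAC 4 rose: 2 of the 3 of the integrin chain Itgb1, another of Ddr1 (1415798_at) and 1 of Mrc2, an endocytic receptor (0.75 to 1.20). Ddr1 1415798_at did not pass against 4 weeks (0.17, limma adjusted p = 0.740). The same 2 of Itgb1 were already higher at 4 weeks than before AAC (1.31 ± 0.22, adjusted p = 0.0127, and 0.77 ± 0.20, adjusted p = 0.0446). They were the 2 of the 16 that rose at that time, when 3.59% of all probe sets tested and no collagen probe set rose.

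A few fibroblast markers other than collagens rose as well. Of 25 probe sets of 14 markers, 3 rose against 4 weeks and 0 fell, where 1.41% of all probe sets tested rose and 1.89% fell. The 3 were Postn, the matrix protein periostin (2.33 ± 0.34, adjusted p = 0.00444), and both of Mfap5, a microfibril protein (1.61 ± 0.29, adjusted p = 0.0126, and 1.33 ± 0.30, adjusted p = 0.0367). The list's median difference was 0.22, and its summed signal on chip 430A lay between 63531 and 88280 with Akt on, against 66386 to 98143 at 4 weeks. That sum is weighted to the brightest probe sets; the mean log2 value over the 25 was 10.53, 10.49 and 10.13 with Akt on, against 10.46, 9.79 and 9.76 at 4 weeks, and 9.92, 10.19 and 10.02 before AAC. The Akt-on hearts overlapped the 4-week hearts in both measures. The 22 that did not pass against 4 weeks differed by −0.81 to 2.88, and 14 of them were above 0. At the ends of that range, named after their values were seen, stood Dpep1 (adjusted p = 0.114) and Mfap4 (adjusted p = 0.0740). Against before AAC 4 of the 25 rose, of Postn, Mfap5 and Mfap4, and 6 fell, of Dpep1 and Gsn, where 8.25% of all probe sets tested rose and 6.77% fell. The Mfap4 probe set passed the filter on brightness through the Akt-on hearts alone, so it had to be high there. The list's summed signal before AAC was 88740 to 100240. The part of fibroblast number in the collagen differences was not tested.

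Some markers of vessel cells fell against 4 weeks and others rose, where 1.89% of all probe sets tested fell and 1.41% rose. The summed signal of the endothelial markers on chip 430A was 17530 to 19268 with Akt on, against 20728 to 22743 at 4 weeks, and 1 of their 20 probe sets fell and 0 rose in that comparison; before AAC it was 27997 to 30052. Of 19 probe sets listed for smooth muscle and pericytes 4 fell against 4 weeks, of Abcc9 and Kcnj8, which encode potassium channel subunits. Which cells of the heart these transcripts came from was not tested. Another 2 rose, of Mcam, an adhesion molecule (0.64 ± 0.14, adjusted p = 0.0364), and of Cnn1, the smooth muscle protein calponin (2.04 ± 0.49, adjusted p = 0.0429), the last named after its values were seen. The Cnn1 probe set passed the filter on brightness through the Akt-on hearts alone, so it had to be high there. The summed signal of this list was 20552 to 22389 with Akt on, against 23078 to 28316 at 4 weeks. None of the 8 mesothelial probe sets passed in any comparison, and their sums overlapped between the groups.

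The 7 genes called in both comparisons with Akt on were Col1a1, Col1a2, Col3a1, Col4a5, Col5a1, Col5a2 and Col8a1. Since these genes were high in the same hearts, the 250 bases before the start of each are shown for the 5 that have an entry among RefSeq promoter windows (build GRCm38.p6), 5' to 3' along the gene. Capitals mark 4 short motifs searched on both strands: the CCAAT box (CCAAT or ATTGG), the GC box bound by Sp1 (GGGCGG or CCGCCC), the TATA box (TATAAA or TTTATA) and a Smad-binding element (CAGACA or TGTCTG).
Col1a2 (chr6:4505368-4505617, plus strand): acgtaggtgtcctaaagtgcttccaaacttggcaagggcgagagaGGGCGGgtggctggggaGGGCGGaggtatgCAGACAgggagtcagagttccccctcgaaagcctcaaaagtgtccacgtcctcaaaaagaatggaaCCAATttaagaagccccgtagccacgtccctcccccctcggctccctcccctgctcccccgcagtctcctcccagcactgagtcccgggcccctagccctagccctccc
Col3a1 (chr1:45311288-45311537, plus strand): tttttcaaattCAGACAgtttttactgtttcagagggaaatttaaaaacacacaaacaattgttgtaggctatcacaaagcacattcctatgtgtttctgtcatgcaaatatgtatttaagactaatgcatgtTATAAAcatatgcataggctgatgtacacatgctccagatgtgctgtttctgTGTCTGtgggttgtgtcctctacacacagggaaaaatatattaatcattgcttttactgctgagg
Col4a5 (chrX:141475169-141475418, plus strand): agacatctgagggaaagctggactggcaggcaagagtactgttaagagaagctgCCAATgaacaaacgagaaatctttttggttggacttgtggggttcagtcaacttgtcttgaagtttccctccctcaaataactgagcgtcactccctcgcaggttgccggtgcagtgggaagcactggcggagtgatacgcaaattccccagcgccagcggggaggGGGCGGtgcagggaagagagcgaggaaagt
Col5a1 (chr2:27886175-27886424, plus strand): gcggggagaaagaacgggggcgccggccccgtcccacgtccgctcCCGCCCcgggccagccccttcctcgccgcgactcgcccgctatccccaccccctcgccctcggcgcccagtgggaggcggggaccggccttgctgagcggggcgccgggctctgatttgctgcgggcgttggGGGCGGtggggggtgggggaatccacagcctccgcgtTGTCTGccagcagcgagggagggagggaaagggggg
Col8a1 (chr16:57754738-57754987, minus strand): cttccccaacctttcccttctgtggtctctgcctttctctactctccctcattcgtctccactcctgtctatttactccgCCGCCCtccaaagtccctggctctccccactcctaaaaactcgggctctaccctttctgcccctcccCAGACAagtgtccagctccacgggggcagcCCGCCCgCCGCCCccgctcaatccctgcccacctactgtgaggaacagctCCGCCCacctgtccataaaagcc

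Col1a2 held a CCAAT box at −109 to −105, 2 GC boxes and a CAGACA, counted back from the start of the gene. Col3a1 held a TATA box at −117 to −112 and 2 Smad-type motifs, and no GC box letters. The other 3 held GC boxes, 1 in Col4a5, 2 in Col5a1 and 4 in Col8a1, and Col5a1 and Col8a1 each held 1 Smad-type motif. The Col3a1 window had 35.2% G and C, that of Col5a1 76.4%, and the median over all windows was 52.4%. Over 32851 windows of this length the GC box occurred in 32.74%, the CCAAT box in 33.85%, the Smad-type motif in 17.13% and the TATA box in 12.37%. In the 38 windows whose gene symbol is a collagen alpha chain, on the arrays or not, the shares were 57.89% (22 windows), 34.21% (13 windows), 23.68% (9 windows) and 13.16% (5 windows). How many genes these windows cover was not counted. A match is a run of letters and no evidence of binding.

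Some of the chains are neighbours in the genome. Col3a1 and Col5a2 lie next to each other on chromosome 1, and both rose in the 2 comparisons with Akt on. Col4a1 and Col4a2 lie head to head on chromosome 8, where their windows share 78 bases, and neither passed in any comparison outside the alternatives of processing. Col4a5 and Col4a6 are neighbours on opposite strands of the X chromosome; Col4a5 rose, while Col4a6 differed by −0.14 ± 0.27 from 4 weeks and did not pass. Col6a1 and Col6a2 lie next to each other on chromosome 10, with differences from 4 weeks between 0.63 and 0.73 that did not pass.

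The remaining 34 collagen probe sets were too dim to be tested. Their values in single hearts ran from 5, a signal of 0, to 8.09, with a median of 5.72. For 11 genes this was true of every probe set: Col2a1, Col9a2, Col9a3, Col10a1, Col11a1, Col13a1, Col17a1, Col19a1, Col24a1, Col26a1 and Col6a5. The brightest collagen probe set left out, of Col4a3, stood at percentile 35.0 of its chip by mean signal, and the dimmest kept, of Col11a2, at percentile 40.8, on either side of the threshold at which the highest 60% were kept. That Col4a3 probe set, 1438779_at, would have passed by the hearts before AAC and at 4 weeks alone: its signal averaged 17.8 with Akt on, 60.8 at 4 weeks and 39.4 before AAC, and since it was not tested it is not among the probe sets of which 0 fell. A probe set below it gives no evidence that its gene was not expressed.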

How the data were processed

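RNA of 9 hearts was hybridised to Affymetrix chips 430A and 430B, 18 arrays in all. Per the labels' protocols, total RNA was isolated with Ultraspec-II and biotin-labelled by the authors; per the submitters' processing notes, the values were made with MAS5. The deposited values are intensities, linear MAS5 signals that were scaled to a common trimmed mean within each chip and 4.08 times lower on chip 430B. For this reason values of the 2 chips were never compared, and the pseudocount weighs more on chip 430B. Whether the values had any further filter is not given in the sources used here.

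From the deposited intensities, log2(signal + 32) was taken after setting all arrays of a chip to their mean trimmed mean (2% off each end). Control probe sets (128) and those with several (936) or no (9160) gene symbols were left out, and on each chip the brightest 60% by mean signal were kept. In R 4.3.3 with limma 3.58.1, 3 group means were fitted to each chip (eBayes with trend), and p-values, two-sided, were adjusted by Benjamini-Hochberg over both chips. The median standard error of a difference was 0.194, and the 3 arrays in each group limit the precision. The script was tested on simulated data. Rules of naming: values in each heart for every collagen probe set called and for the brightest of 14 main genes; from each other list, at most the 5 called probe sets with the smallest p. The 23 alternatives concern the scaling, the filter, the pseudocount, the probe set chosen per gene, the variance model, the hearts fitted together, the adjustment, a replicate block, atrial transcripts and leaving out each heart. The members, the lists and the alternatives were chosen with earlier results of these data known. Symbols came from the platform annotation, promoter windows from RefSeq (33 of 42 collagen genes matched), and neighbours from RefSeq gene order. Probe sets of 1 gene share its transcripts and are not independent; those ending in x_at or s_at may bind related transcripts.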

Additional observations from a re-analysis of the deposited data

How the results depend on the processing

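Under the 23 alternatives no called difference of the 27 named collagen probe sets changed sign. Of the values, 1677 stayed on the same side of the threshold, 126 lost a call and 21 gained one. Differences called in neither fit were counted among the 1677 even where their sign changed. Collagen probe sets that rose with Akt on against 4 weeks numbered 10 with 1 probe set per gene (of 31) and 10 with a fit of the 6 hearts compared only, in place of 17; against before AAC, 6 with 1 probe set per gene, in place of 14. Without the 4 hearts richest in atrial transcripts these were 5 and 3, with 0 lower at 4 weeks, and 96, 309 and 5 over all probe sets. The 3 falls at 4 weeks became 1 with no filter, with eBayes without trend, with 4-week replicates 1 and 3 averaged and with the atrial covariate, and 1 rise appeared with a pseudocount of 16 or with adjustment within each chip. Why these counts moved was not tested, apart from the fewer hearts or probe sets in some.

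Over all probe sets, 1222 were called at 4 weeks against before AAC, 680 with no filter, 661 with 1 probe set per gene and 618 with 4-week replicates 1 and 3 averaged. With Akt on against 4 weeks 721 were called, 442 with no filter, 448 without trend, 261 with only the 6 hearts compared and 384 with those replicates averaged. Against before AAC 3283 were called, and 1940 with 1 probe set per gene. Leaving out 1 heart gave 8 to 18 collagen rises against 4 weeks, 10 to 16 against before AAC, and 0 to 3 falls and 0 to 1 rises at 4 weeks; over all probe sets the counts were 254 to 636, 1602 to 3694 and 133 to 1715.

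The labels do not say whether the replicate numbers pair the hearts. Deviations of same-numbered hearts correlated between -0.197 and 0.118, and those of differently numbered hearts between -0.155 and 0.169. With 3 hearts a group these values cannot decide whether hearts were paired. With the replicate block 17 collagen probe sets rose against 4 weeks, 16 against before AAC and 1 fell at 4 weeks; over all probe sets 454, 2714 and 574 were called. Under it Col5a1 1434479_at passed against before AAC (0.55, adjusted p = 0.0383) and Col6a2 1426947_x_at against 4 weeks (0.63, adjusted p = 0.0441).

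Signal over background limits the dim probe sets most: 34 collagens were not tested, 2 were tested through the Akt-on hearts alone, and 1, of Col4a3, was left out through low values in those hearts.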
